A study of Mus musculus with 4 samples.

Results

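The genes of cholesterol and fatty acid synthesis were followed in sorted mouse B cells: 38 genes, chosen by symbol, of the 37646 gene rows in the deposited tables. They cover the enzymes of the mevalonate pathway and of sterol synthesis, the SREBP proteins that control them, sterol export and storage, and the synthesis, desaturation and elongation of fatty acids, and each of the 38 symbols matched 1 row. The cells came from spleens of C57BL/6 control mice of genotype YFPstopF/+Cg1Cre/+, in which Cre, driven from the Cg1 (Ighg1) locus, switches on a YFP reporter. The mice received sheep red blood cells in 2 intraperitoneal injections separated by 20 days, and their spleens were collected 10 days later. Living B220+YFP+ cells were sorted, poly(A) RNA was sequenced, and 4 libraries resulted, numbered 1 to 4, all of this 1 group. The lymphoma samples to which the design text compares these cells were not analysed here, so that what follows is a comparison between genes within a library and of the spread between libraries. The Cre marks B cells that have expressed the Ighg1 locus and their descendants, so the sort can hold memory and plasma cells beside germinal centre B cells. Separate animals are not stated for the 4 libraries, and only library 3 can be set apart, by sex (below). The spread and the p-values below may therefore be technical in part.

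Cholesterol is built from acetyl-CoA through mevalonate, isoprenoids, squalene and lanosterol. When membrane sterol is low, SCAP carries the SREBP factors from the endoplasmic reticulum to the Golgi, where they are cut and released to switch on sterol and fatty acid genes, whereas INSIG proteins hold SCAP back when sterol is high. LXR receptors sense oxidised sterols and drive export through ABCA1 and ABCG1. Dividing lymphocytes need new membrane, and sterol and fatty acid synthesis are known to rise when they are activated.

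The total count per library ran from 13777954 to 14629025, and the limit set by an absence of counts, taken as 3 counts, was 0.205 to 0.218 CPM (counts scaled to the library total). Levels between genes are compared in TPM, for which counts were divided by the summed exon length of the gene. All 7 germinal centre markers and all 6 B lineage markers exceeded 1 TPM in every library, among them Bcl6 at 71.8 ± 24.5 TPM (SD, n = 4). Other B cell stages were present too: 4 naive B cell markers summed to 1388 to 2545 TPM and 5 plasma cell markers to 791 to 1841 TPM, against 1241 to 2089 TPM over the 7 germinal centre markers. Cells of other types left smaller sums than the 14505 to 22120 TPM over 6 B lineage markers. The 7 T cell markers summed to 166 to 434 TPM and the 4 NK cell markers to 39.8 to 91.9 TPM. For 9 macrophage and monocyte markers the sum was 201 to 308 TPM, and for 6 neutrophil markers 129 to 312 TPM. Sums were 70.7 to 217 TPM over 5 erythroid, 10.5 to 62.9 TPM over 4 platelet and 16.4 to 23.8 TPM over 4 dendritic cell markers. They were 0.895 to 1.67 TPM over 5 stromal and endothelial markers and 0.627 to 1.35 TPM over 4 adipocyte markers. Library 3 alone carried the Y-linked Ddx3y, at 1307 counts against 3, 0 and 0 in libraries 1, 2 and 4. Xist, expressed in female cells, had 6 counts in library 3 against 8922, 8689 and 12160 in libraries 1, 2 and 4. Library 3 was thus male and came from another animal than libraries 1, 2 and 4, which were female. Whether libraries 1, 2 and 4 came from separate animals is not given. Sex cannot be told apart from any other feature of library 3. Against the mean of the libraries, the median of all tested genes on the TPM scale lay 0.18 higher (log2) in library 3 and lower in library 2 by the same amount (-0.18), so where a library is called high or low for a gene, this holds after TMM normalisation.

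The programme was expressed almost throughout. A level of 1 TPM was passed in every library by 37 of the 38, with Ch25h as the exception. The median member stood at 15.9 TPM and the sum over all members at 1216 ± 140 TPM (SD, n = 4). The most abundant member, Scd1 (162 ± 16.3 TPM), lay above 96.3% of the 10576 protein-coding genes that averaged at least 1 TPM. Nr1h2 (141 ± 34.9 TPM) and Srebf2 (133 ± 17.6 TPM) came next, followed by Acly (85.6 ± 12.1 TPM), Elovl1 (73.2 ± 5.54 TPM), Fasn (61.9 ± 14.0 TPM) and Srebf1 (59.5 ± 12.9 TPM). With the length of the longest transcript in place of all exons, Nr1h2 (204 TPM) and Srebf2 (163 TPM) stood above Scd1 (142 TPM). The order of neighbours was mostly not resolved: of 37 neighbouring pairs in the order of mean TPM, 5 had ranges that did not overlap, and 10 kept the same order within all 4 libraries. The 5 were Srebf2 above Acly, Pmvk above Scd2, Tm7sf2 above Elovl6, Fdps above Idi1 and Idi1 above Ch25h.

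**Figure D1:**
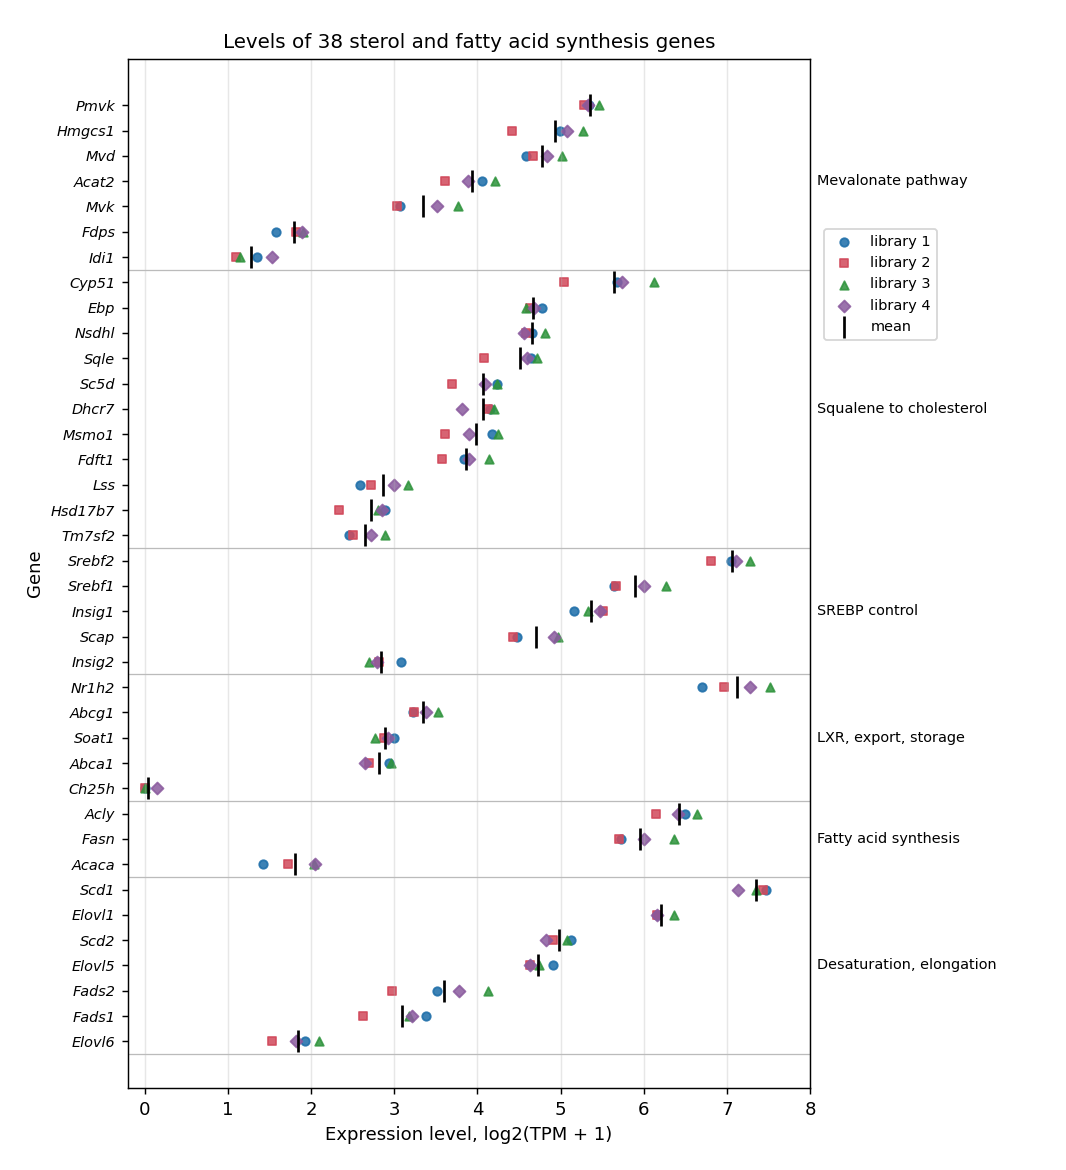
Level of each of the 38 genes in each library on the log2(TPM + 1) scale, with coloured points for the 4 libraries and a black bar for their mean, grouped by role. Scd1, Nr1h2 and Srebf2 stand at the right, Ch25h at 0, and Idi1, Fdps and Acaca well below the other enzymes of their groups.

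The enzymes of the mevalonate pathway turn acetyl-CoA into farnesyl diphosphate, from which both sterols and the prenyl groups of proteins are made. The group summed to 125 ± 17.3 TPM, and the level differed widely between consecutive steps. Pmvk, the phosphomevalonate kinase, was the highest of the 7, at 39.4, 37.8, 43.0 and 39.3 TPM in libraries 1, 2, 3 and 4. Idi1, the isomerase that makes dimethylallyl diphosphate, was the lowest, at 1.55, 1.13, 1.21 and 1.89 TPM. Hmgcs1, the HMG-CoA synthase, reached 30.8, 20.4, 37.6 and 32.6 TPM. Library 2 was the low one for Hmgcs1, on the TPM scale and after TMM normalisation. Mvd, the decarboxylase, averaged 26.6 ± 3.73 TPM and Mvk, the mevalonate kinase, 9.42 ± 2.59 TPM. Acat2, the cytosolic thiolase that condenses acetyl-CoA, had 15.6, 11.2, 17.5 and 13.8 TPM. Fdps, the farnesyl diphosphate synthase, had 1.99, 2.54, 2.74 and 2.70 TPM, in all 4 libraries below every other member of the group but Idi1.

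The 11 enzymes from squalene to cholesterol summed to 200 ± 30.9 TPM. Cyp51, the lanosterol demethylase (ENSMUSG00000001467.5; chromosome 5, 4081145 to 4104746, mm10), led them at 50.1, 31.8, 68.8 and 52.6 TPM, lowest in library 2 and highest in library 3, also after TMM normalisation. Tm7sf2, a sterol reductase, closed the group at 4.48, 4.69, 6.43 and 5.59 TPM. Sqle, the squalene epoxidase that catalyses a rate-limiting oxygenation, averaged 22.1 ± 4.24 TPM. Fdft1, the squalene synthase that commits farnesyl diphosphate to sterols, had 13.3, 10.9, 16.7 and 13.9 TPM. The X-linked genes Ebp, a sterol isomerase, and Nsdhl, a sterol dehydrogenase, averaged 24.5 ± 1.45 and 24.2 ± 1.99 TPM, and Nsdhl ran at 24.2, 22.9, 27.0 and 22.7 TPM. Sc5d, a sterol desaturase, averaged 15.9 ± 2.75 TPM, Dhcr7, the last reductase of the pathway, 15.9 ± 1.90 TPM and Msmo1, the methylsterol monooxygenase, 15.04 ± 3.06 TPM. Lss, which closes the rings to lanosterol, averaged 6.40 ± 1.33 TPM and Hsd17b7, a ketosteroid reductase, 5.67 ± 1.10 TPM. The late pathway was therefore measured at every enzyme listed, over a range of levels between its lowest and highest member of 5.30 to 50.8 TPM.

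Promoters of 3 of these genes are shown, since the genes of the sterol pathway share their control by SREBP. Among the mevalonate and sterol genes with a promoter, those with the most matches to TCACNCCAC came first, then those with the highest TPM. Hmgcs1 was therefore shown because it holds this motif, and Cyp51 and Pmvk because of their TPM. Each runs 250 bases before to 50 bases after a start site, in the direction of the gene, from RefSeq on GRCm38.p6, the assembly that mm10 names. Capitals mark matches on either strand to TCACNCCAC (a core of the sterol regulatory element that SREBP binds), to CACGTG (the E-box) or to CCAAT (the box that NF-Y binds, read as ATTGG on the other strand). These motifs did not overlap each other in the 3 sequences.
Hmgcs1, chr13:119690101-119690400, plus strand: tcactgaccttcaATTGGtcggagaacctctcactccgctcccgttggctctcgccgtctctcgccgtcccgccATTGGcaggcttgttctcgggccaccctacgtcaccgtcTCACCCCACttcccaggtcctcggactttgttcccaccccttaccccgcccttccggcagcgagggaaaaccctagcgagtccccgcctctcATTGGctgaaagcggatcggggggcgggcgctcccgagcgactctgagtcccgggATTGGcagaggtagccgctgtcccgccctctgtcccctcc
Cyp51, chr5:4104648-4104947, minus strand: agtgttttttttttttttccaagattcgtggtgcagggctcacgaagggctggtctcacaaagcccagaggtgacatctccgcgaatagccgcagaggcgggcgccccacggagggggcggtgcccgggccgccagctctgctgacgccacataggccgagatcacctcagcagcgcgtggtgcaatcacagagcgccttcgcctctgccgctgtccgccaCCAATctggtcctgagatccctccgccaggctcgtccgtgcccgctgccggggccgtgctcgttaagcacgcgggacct
Pmvk, chr3:89454291-89454590, plus strand: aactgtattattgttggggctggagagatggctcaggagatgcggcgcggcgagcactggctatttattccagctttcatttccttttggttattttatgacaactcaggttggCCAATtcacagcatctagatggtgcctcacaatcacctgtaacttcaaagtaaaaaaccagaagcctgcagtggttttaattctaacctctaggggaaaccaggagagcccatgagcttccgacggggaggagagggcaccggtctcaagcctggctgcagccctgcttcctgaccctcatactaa
The Hmgcs1 promoter held 1 match to TCACNCCAC, whose first base in the printed direction lay 137 bases before the start site, and 4 CCAAT boxes. The Cyp51 promoter held 1 CCAAT box, and so did the Pmvk promoter shown, while a further start site listed for Pmvk held none of the 3 motifs. Promoters were found for 31 of the 38 members. Fdps, Fdft1, Sqle, Abcg1, Scd1, Scd2 and Fads1 had no entry. Hmgcs1 was the 1 member of 31 with TCACNCCAC, against 1.44% of all 27025 genes with a promoter and 1.39% of the 9025 among them whose spread was tested. CCAAT was present in 14 of the 15 mevalonate and sterol genes with a promoter, with Acat2 the exception, and in 23 of 31 members (74.2%), against 41.1% of all genes and 43.5% of tested ones. CACGTG was present in 7 of 31 members (22.6%), against 8.09% of all genes and 12.1% of tested ones. A match is a stretch of letters and not a measured site of binding.

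The control genes of the SREBP system spanned a wide range, with both factors among the 7 most abundant members and Insig2 among the lower ones. Srebf2, the factor that mainly drives sterol genes (chromosome 15, 82147181 to 82205379), reached 131, 111, 154 and 136 TPM. Srebf1, which mainly drives fatty acid genes, reached 49.0, 49.8, 76.2 and 63.2 TPM. Srebf2 exceeded Srebf1 in every library. Scap, the escort of both factors, averaged 25.4 ± 5.21 TPM. Insig1, itself a known SREBP target, had 34.8, 44.5, 39.1 and 43.6 TPM, and Insig2, an isoform gene with the same role, had 7.47, 6.03, 5.47 and 5.95 TPM. The order of the 2 retention genes was the same in all 4 libraries, with Insig1 higher.

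Among genes of sterol sensing, export and storage, the level was high for the receptor and low for its export targets. Nr1h2, which encodes LXR beta, had 103, 123, 182 and 155 TPM, lowest in library 1 and highest in library 3, also after TMM normalisation. Abcg1, a sterol exporter, had 8.34, 8.47, 10.6 and 9.47 TPM. Abca1, the exporter that loads apolipoproteins, had 6.67, 5.46, 6.82 and 5.30 TPM. Soat1, which esterifies cholesterol for storage, had 6.99, 6.33, 5.80 and 6.58 TPM. Macrophages also express Abca1, Abcg1 and Soat1. The macrophage and monocyte markers (all 9 above 1 TPM in every library) summed to 308, 201, 211 and 249 TPM in libraries 1, 2, 3 and 4, with Csf1r between 8.50 and 10.7 TPM, and their part in these levels was not tested. Ch25h, the enzyme that hydroxylates the side chain of cholesterol (chromosome 19, 34473778 to 34475164), had 0, 0, 0 and 1 count. At this depth 3 counts correspond to 0.331 to 0.367 TPM for Ch25h, so a level above that range was not detected in any library.

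Fatty acids are made from cytosolic acetyl-CoA, which ACLY releases from citrate, ACACA carboxylates and FASN joins into palmitate. Acly had 89.2, 69.8, 98.9 and 84.5 TPM. Fasn had 52.1, 51.0, 81.3 and 63.4 TPM. Acaca, the carboxylase between them, had 1.68, 2.30, 3.11 and 3.14 TPM. All 4 libraries placed Acaca far below both neighbours. The 3 genes lie on chromosome 11, as does Srebf1.

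Desaturation and elongation then shape the chains, and the 7 genes of this group summed to 314 ± 22.03 TPM. Scd1, a desaturase that makes oleate and palmitoleate, had 176, 172, 162 and 139 TPM. Scd2, the neighbouring paralog with the same reaction, had 33.9, 28.9, 32.8 and 27.2 TPM. The paralogs lie on chromosome 19, Scd1 at 44394455 to 44407879 on the minus strand and Scd2 at 44293674 to 44306864 on the plus strand. Adipocytes are rich in Scd1, and of 4 adipocyte markers Adipoq stood at 0.747 ± 0.424 TPM and Plin1, Cidec and Retn at 0.0936 TPM or below on average. Elovl1, which elongates saturated very long chains, averaged 73.2 ± 5.54 TPM. Elovl5, which elongates polyunsaturated chains, had 29.1, 23.9, 25.8 and 23.7 TPM. Elovl6, which elongates palmitate to stearate, had 2.80, 1.90, 3.29 and 2.53 TPM, the lowest of the group. Fads2 and Fads1, the desaturases of polyunsaturated chains, are also neighbours on chromosome 19. Fads2 had 10.5, 6.87, 16.5 and 12.7 TPM and Fads1 had 9.39, 5.15, 8.03 and 8.27 TPM, both lowest in library 2, also after TMM normalisation.

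Isozymes, paralogs and branch-point enzymes were then compared in 10 pairs within each library, as differences in log2(TPM + 1). In TPM, the same gene of each pair was higher in 4 of 4 libraries. Scd2 lay below Scd1, with a difference of -2.37 ± 0.12 (SD, n = 4) and library values between -2.53 and -2.27. Insig1 was 2.52 ± 0.29 above Insig2, and Srebf2 was 1.16 ± 0.17 above Srebf1. Acly, which makes acetyl-CoA from citrate, was 5.13 ± 0.30 above Acss2, which makes it from acetate (1.49 TPM on average). Acaca was 1.57 ± 0.25 above Acacb, the mitochondrial carboxylase isozyme, which averaged 0.188 TPM. That size depends on the pseudocount of 1, and was 3.28 ± 0.64 with a pseudocount of 0.1 and 3.51 ± 0.46 in CPM. Elovl5 was 2.88 ± 0.20 above Elovl6, and Soat1 was 1.57 ± 0.50 above Soat2, the esterifying isozyme of gut and liver, with a smallest library value of 0.85 and a difference of 3.54 ± 0.48 in CPM.
The remaining differences were smaller. Fdft1 was 0.67 ± 0.27 above Ggps1, the synthase that takes farnesyl diphosphate to the geranylgeranyl branch. Abcg1 was 0.53 ± 0.19 above Abca1, and Fads2 was 0.50 ± 0.34 above Fads1, where library 1 showed 0.14. Both rest on the gene length used: in CPM, which carries none, Abcg1 over Abca1 was 0.10 ± 0.21 (exact p = 0.5) and Fads2 over Fads1 was 0.01 ± 0.35 (exact p = 1), and with the longest transcript Fads2 over Fads1 was 0.13 ± 0.34 (exact p = 0.625). An exact sign-flip permutation over libraries gave p = 0.125 for each pair, before and after Benjamini-Hochberg adjustment over the 10 pairs, which is the smallest p that 4 libraries allow. No pair could therefore pass a threshold of 0.05 in this design, and each difference is given with its SD only as a description. That SD covers the spread between libraries and not the gene length used, which is the same in every library.

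**Figure D2:**
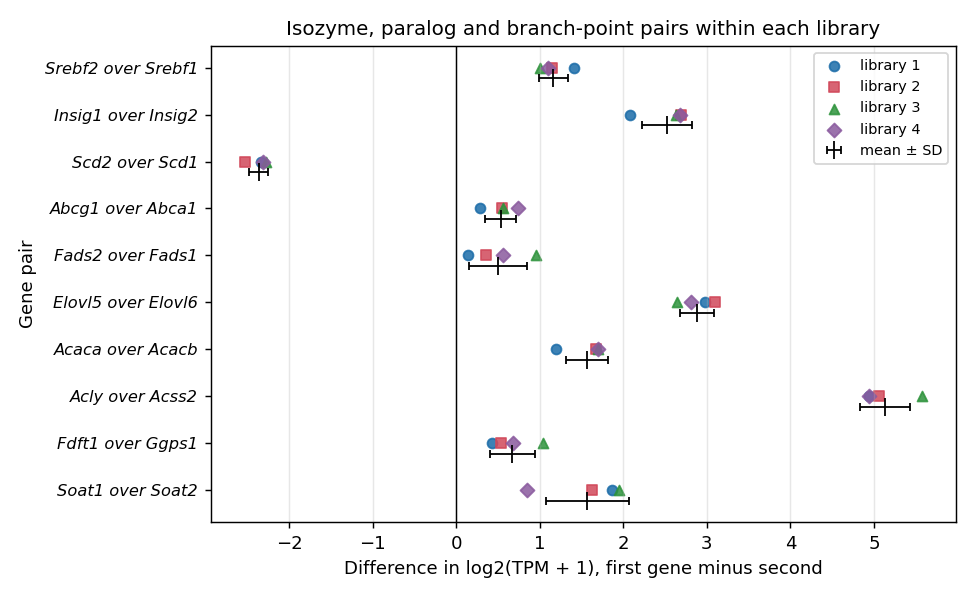
Difference in log2(TPM + 1) between the first and the second gene of 10 pairs, with a coloured point for each library and the mean ± SD in black. All points of a pair lie on one side of 0, those of Scd2 over Scd1 on the negative side and those of the other 9 pairs on the positive side.

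The level of several members rests on a part of their sequence. Every window of 50 bases, the length of a read, was taken from the longest protein-coding transcript of each member and looked up, on both strands, in the transcripts of all other annotated genes. For Fdps 86.4% of the windows occurred unchanged in another gene, for Acaca 52.6%, for Acat2 45.9%, for Fdft1 30.7% and for Idi1 30.5%. No other member reached 20%, and 19 of 38 had no such window. The partner with the most windows of Fdps was Gm43738, a predicted gene that overlaps it on the same strand (77.3%), and the processed pseudogene Gm3571 held 40.1%. Acaca shared 52.6% of its windows with the processed pseudogene Gm5182, Acat2 shared 45.9% with its near-copy Acat3, Idi1 shared 21.3% with the processed pseudogene Gm13502, and Fdft1 shared 19.9% with Ctsb, which overlaps it on the opposite strand. The shares in any other gene were lower when windows of all transcripts of a member were taken. They were then 26.2% for Fdps, 30.4% for Acaca, 39.1% for Acat2, 26.5% for Fdft1 and 25.3% for Idi1.
Of the partners named above, Ctsb was abundant and the others had few counts. Gm43738 had 0, 1, 1 and 0 counts in libraries 1 to 4, Gm5182 had 0, 3, 2 and 1, Gm13502 had 0 in each, and Acat3 had 17, 6, 6 and 18, whereas Ctsb had 2764, 2416, 2171 and 2604. Tcp1, which held 13.2% of the Acat2 windows, was also abundant, with 4282, 3560, 5675 and 5141 counts. The sources used here do not give how reads with several matches or in overlapping genes were counted. The levels of Fdps, Acaca, Idi1, Acat2 and Fdft1 are uncertain for that reason, and so are the differences of Acaca over Acacb and Fdft1 over Ggps1. Fdps, Acaca and Idi1 were also, with Elovl6 and Ch25h, the 5 lowest of the 38 members. The share of Elovl6 windows in other genes was 4.40%.

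**Figure D3:**
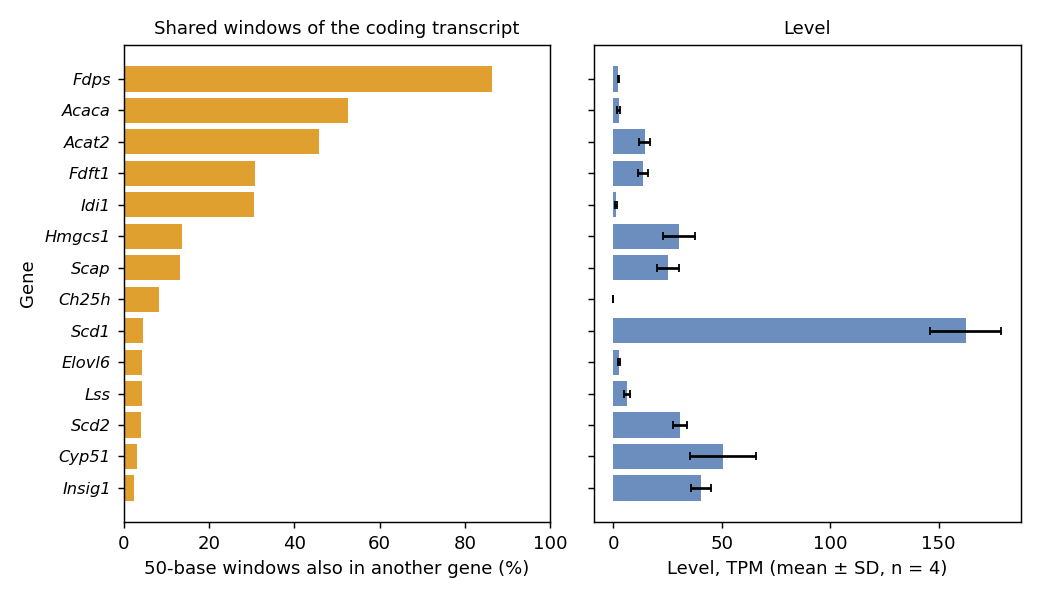
Left, the percentage of 50-base windows of the longest coding transcript that occur unchanged in a transcript of another gene, for the 14 members with at least 2%. Right, the level of the same genes in TPM (mean ± SD, n = 4). Fdps, Acaca and Idi1 combine at least 30.5% shared windows with a level of 2.56 TPM or below, while Acat2 and Fdft1 stand at 14.5 and 13.7 TPM.

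Further genes of the pathways were read from 3 lists. Of 57 symbols, 56 were found, Hsd3b7 not being among the rows. The isoprenoid list, which makes prenyl groups, dolichol and ubiquinone, had 9 of 10 genes above 1 TPM in all libraries. It was led by Dhdds (28.1 ± 3.37 TPM) and Nus1 (27.6 ± 4.92 TPM), the subunits of the dolichol synthase, and by Coq2 (26.4 ± 3.79 TPM), which builds ubiquinone, and it ended with Pdss2 (2.63 ± 0.29 TPM) and Idi2, which had 0 counts. The list of sterol traffic had 20 of 22 above 1 TPM. Its highest genes were Gramd1a (144 ± 16.6 TPM), which carries sterol from the plasma membrane to the endoplasmic reticulum, Rxrb (62.4 ± 5.92 TPM), a partner of LXR, and Gpr183 (57.8 ± 15.9 TPM), the receptor for oxysterols, and its lowest were Abcg4 (1.43 ± 0.28 TPM) and Cyp7b1 (0 counts).
The fatty acid list had 15 of 24 above 1 TPM in all libraries. It was led by Tecr (190 ± 35.5 TPM), the last enzyme of the elongation cycle, Acsl5 (58.7 ± 12.4 TPM), which activates fatty acids, and Slc25a1 (43.6 ± 10.8 TPM), the citrate carrier that feeds ACLY. Several isozymes of other tissues were near 0: Scd3 and Elovl3 had 1 count each over all libraries. Me1, the cytosolic malic enzyme known as a source of NADPH for fatty acid synthesis, had 2 counts over all libraries and was added after its values were seen, and 32.8% of its 50-base windows occurred in other genes.

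The spread between libraries was tested gene by gene with edgeR's quasi-likelihood dispersion, as the ratio of each gene's quasi-dispersion to the trend at its level. Of 11982 genes tested, 1 (0.00835%) passed a Benjamini-Hochberg adjusted p of 0.05, and 595 (4.97%) had an unadjusted p under 0.05. Of the 37 members tested, 0 passed and 0 had an unadjusted p under 0.05. Ch25h was left out by the filter on low counts. DESeq2 marked 0 of the 37 as dispersion outliers, against 159 of the 11982 tested genes. The smallest adjusted p of a member was 0.990, for Cyp51. The median SD of log2 normalised CPM was 0.19 over the 37 members and 0.22 over all tested genes, and the ratio to the trend had a median of 0.860 for members and 0.895 for all tested genes. A p above the threshold does not show that libraries were alike, but the members' spread was close to that of genes at large.

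Some members were very even. Srebf2 had 430, 404, 436 and 426 normalised CPM in libraries 1 to 4, a ratio of 0.0757, and 2.70% of tested genes had a ratio as low or lower. Abcg1 had 27.8, 31.2, 30.4 and 30.02 normalised CPM, and Pmvk 30.9, 32.6, 29.0 and 29.2. Their ratios to the trend were 0.108 and 0.139, and no library stood apart. Tm7sf2 (9.01, 10.4, 11.2 and 10.7) and Nsdhl (31.5, 33.0, 30.4 and 28.1) were the next most even.
The widest ratios were those of Cyp51, at 101, 70.8, 120 and 101 normalised CPM (3.33 times the trend), and Nr1h2, at 158, 209, 241 and 225 (2.45 times). Cyp51 was low in library 2 and Nr1h2 in library 1. Fads2 had 15.8, 11.4, 21.4 and 18.2 normalised CPM (2.18 times), Scd1 393, 425, 313 and 296 (2.10 times) and Acaca 13.1, 19.8, 20.9 and 23.3 (2.06 times). These genes did not share a direction: Fads2 was lowest in library 2, where Scd1 was highest. Their unadjusted p lay between 0.116 and 0.226 (edgeR quasi-likelihood, adjusted p = 0.990 for each).
Of the 44 further pathway genes tested, 0 passed, and 1, Gpr183, had an unadjusted p under 0.05 (0.0250, edgeR adjusted p = 0.821), at 49.95, 107, 60.1 and 83.8 normalised CPM.

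**Figure D4:**
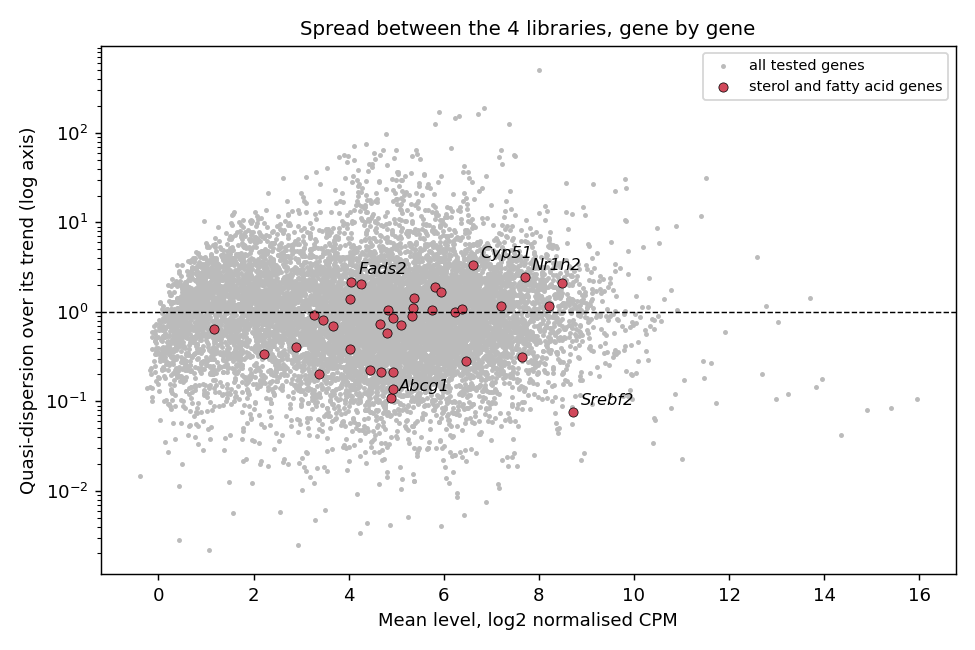
Ratio of quasi-dispersion to trend per gene (log axis) against mean log2 normalised CPM, for all 11982 tested genes in grey and the 37 tested members in red. The dashed line marks the trend. Members lie within the cloud, from Srebf2 at 0.0757 to Cyp51 at 3.33.

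The direction of the deviations was then described, with no test, since each library is a single sample. Library 3 held the highest normalised CPM for 13 of the 37 members and for 27.8% of all tested genes. Library 1 held it for 13 members (28.9% of all genes), library 2 for 8 (25.1%) and library 4 for 3 (18.3%). The lowest value fell in library 1 for 11 members (28.4% of all genes), in library 2 for 13 (26.7%), in library 3 for 7 (26.5%) and in library 4 for 6 (18.4%). On the TPM scale library 3 held 26 of the same 37, and 53.0% of all tested genes, so that count follows the scale.
The sterol branch was read in library 2, a choice made after the values were seen. Of the 18 tested enzymes (7 of the mevalonate pathway and 11 from squalene on), 8 had their lowest value in library 2, against 26.7% of all tested genes, and the count was also 8 with DESeq2 size factors (25.8% of all genes) and with CPM (38.2%), and 11 with TPM (49.7%). The 8 were Hmgcs1, Acat2, Cyp51, Hsd17b7, Sqle, Msmo1, Sc5d and Fdft1. Relative to the gene mean, library 2 stood at -0.44 (log2) for Cyp51 and -0.36 for Hmgcs1, and nearer to the mean for the other 6, with -0.13 for Fdft1 the nearest. Another 8 stood above their mean in library 2: Dhcr7 at 0.24, Fdps at 0.21, Ebp at 0.14, Nsdhl and Pmvk at 0.10, Mvd at 0.07, Tm7sf2 at 0.02 and Lss at 0.01. The median deviation of library 2 was -0.13 over the mevalonate genes and -0.13 over the sterol genes, and -0.00299 over all tested genes. Insig1, at 69.4 normalised CPM, was highest in library 2, against 49.2, 47.6 and 58.5 in libraries 1, 3 and 4.
Other gene groups also deviated in library 2. The 6 cycling markers, among them Mki67 and Top2a, had a median deviation of -0.36 in library 2 and 0.37 in library 3. The 7 germinal centre markers stood at -0.16 in library 2 and the 4 naive B cell markers at 0.48. Plasma cell markers (4 tested) stood at 0.37 in library 2 and -0.90 in library 3, and 7 T cell and 4 NK cell markers at -0.30 and -0.39 in library 2. The 5 stress and immediate early genes stood at 1.21 in library 2 and -1.54 in library 3. The part of these groups in the deviations of the sterol genes was not tested.
Desaturation and elongation genes had a median deviation of 0.15 in library 1 and -0.09 in library 4, and fatty acid synthesis genes of -0.19 in library 1 and 0.15 in library 3. T cell markers stood at 0.74 in library 1 and -0.87 in library 3, and 2 tested platelet markers at 1.36 in library 1, and their part was not tested.

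**Figure D5:**
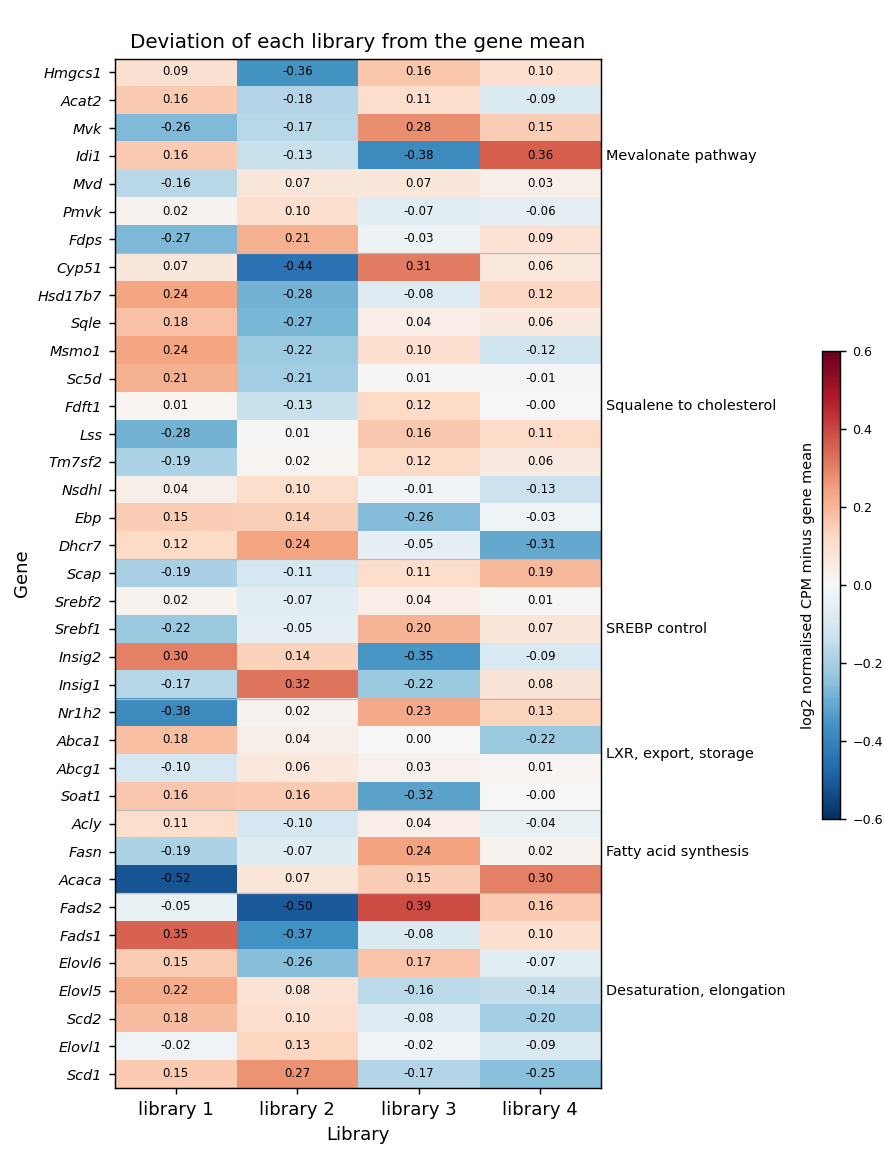
Log2 normalised CPM of each tested member in each library minus the mean over libraries, with the value in each cell and the colour scale running from -0.6 (blue) to 0.6 (red), grouped by role and ordered within a group by library 2. Blue cells of library 2 gather at Hmgcs1, Cyp51, Hsd17b7, Sqle, Msmo1, Sc5d, Fads2, Fads1 and Elovl6.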

How the data were processed

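Read counts per gene, 1 table per library, were deposited by the authors as whole numbers without normalisation. The submitters' processing notes list STAR 2.5.2b and featureCounts 1.6.0, with FastQC and the mm10 build. Gene annotation, strand and multi-match settings are not given in the sources used here. Reads were 50 nt, single-end.

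TPM was computed from the counts with exon lengths and positions of GENCODE M21 (GRCm38, the assembly mm10 names), which matched 37536 of 37646 identifiers. Fold differences use a pseudocount of 1. For the spread between libraries, edgeR 4.0.16 (R 4.3.3) was used: after filterByExpr and TMM scaling, glmQLFit with only an intercept gave a quasi-dispersion, whose ratio to the trend was referred to the F distribution, with Benjamini-Hochberg adjustment. DESeq2 1.42.0 was an alternative. The test of spread was also run on simulated counts and the sign-flip test on simulated differences, with outcomes not reported here. Pairs were tested in Python 3.11.15 with scipy 1.17.1. No genome sequence was used, so windows of 50 bases were matched to transcripts and not to the genome as planned. Limits of 3 counts cover counting error only.

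Members and lists were chosen with earlier results of these data known. All 38 members are named. Values per library are given for the highest and lowest of each role group, the pairs, the 5 widest and 5 most even members and those with at least 20% shared windows, and further genes are the 3 highest and 2 lowest of each list, with others chosen after their values were seen.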

Additional observations from a re-analysis of the deposited data

Results flagged for a closer look

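In 53 sets of 4 library values (37 members, 10 pairs and 6 role groups), 3 held a library far from the other 3, by a gap to the nearest that took more of the whole range than Dixon's critical value allows. Chance alone flags about 1 set in 20. Hmgcs1 stood at 47.3 normalised CPM in library 2, against 64.6, 67.97 and 65.1 in libraries 1, 3 and 4. The difference of Insig1 over Insig2 was 2.08 in library 1 and 2.63 to 2.69 in the others, on the log2(TPM + 1) scale. The difference of Acaca over Acacb was 1.19 in library 1 and 1.68 to 1.70 in the others, on the same scale, with Acaca lowest in that library (13.1 normalised CPM).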

How the results depend on the processing

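No paired analysis was possible because all libraries belong to 1 group. The mean of each of the 10 pair differences kept its sign under the 7 alternatives run (pseudocount 0.1, CPM, length of the longest transcript, each library left out), but fell to 0.01 (CPM) and 0.13 (longest transcript) for Fads2 over Fads1 and to 0.10 (CPM) for Abcg1 over Abca1, and 0 of the tested members were called variable under any of the 9 alternatives. The number of all genes called, 1 in the fit reported, was 262 without a filter on low counts, 63 with robust estimation and 159 as DESeq2 dispersion outliers, and 0 (without library 2) to 19 (without library 3) with a library left out, 3 without library 4. The cause was not tested.

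Median levels of the role groups, in log2(TPM + 1), moved by more than their SD as follows. Means in place of medians gave 3.63 against 3.94 for mevalonate, 5.17 against 5.37 for SREBP control, 3.24 against 2.94 for export and storage, 4.73 against 5.95 for fatty acid synthesis and 4.54 against 4.73 for desaturation and elongation. CPM, which carries no gene length and is another unit, gave 5.04 for sterol genes, 6.38 for SREBP control, 4.93 for export and storage, 7.64 for fatty acid synthesis and 5.35 for desaturation and elongation. The longest transcript gave 4.58 against 4.004 for sterol genes. For export and storage, pseudocount 0.1 gave 2.76 and members of at least 1 CPM gave 3.14. For mevalonate, members with under 20% shared windows gave 4.86. Library 3 held the highest value of 13 members in normalised CPM and of 26 in TPM, by a scale chosen after the data were seen. With the longest transcript 15 of 38 TPM values moved by more than 1 SD, and Nr1h2 (204 TPM) and Srebf2 (163 TPM) then stood above Scd1 (142 TPM). Depth limits statements on genes of a few counts.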
